A study of Mus musculus with 8 samples.

Results

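Expression of 10 genes of glucose uptake and glycolysis was followed in murine peritoneal mast cells (PMCs) and in 2 PMC lines that had transformed in culture. The genes were Slc2a1, Slc2a3, Hk1, Hk2, Pfkl, Aldoa, Gapdh, Pgk1, Pkm and Ldha. They were found by their gene name in a table of 55359 rows, each of which holds 1 gene. The 10 names matched 11 rows, because Aldoa stands in the table under 2 identifiers. Of these, ENSMUSG00000030695 is the aldolase A gene, and ENSMUSG00000114515 is called Gm57854 in GENCODE release M39 and overlaps it on chromosome 7. The row of Gm57854 held between 4 and 49 counts per library and is described separately. All 10 genes passed the filter on low counts.

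RNA was sequenced from 8 untreated cultures of wild-type C57BL/6x129/Sv PMCs, of which 6 were primary (3 from female and 3 from male mice) and 1 each was of the lines PMC-303 and PMC-306. Primary PMCs were freshly isolated and were kept for a limited number of weeks, whereas each line had arisen spontaneously and independently in an ageing, neglected culture and is represented by a single library. Both lines were kept with less foetal calf serum and less stem cell factor (SCF) than the primary cultures, so that medium and transformation cannot be told apart. The paper also grew PMC-306 in the primary medium and reports no change in mRNA of Cdkn2a, Arf, Mrgprb2 and mast cell proteases. The genes followed here were not among those it measured. PMC-306 lacks a piece of 1 copy of chromosome 4.

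Glycolysis splits glucose into pyruvate in the cytosol and yields ATP without oxygen. Glucose enters through transporters of the SLC2A (GLUT) family, is trapped by hexokinase, committed by phosphofructokinase, cleaved by aldolase, and carried through GAPDH and phosphoglycerate kinase to pyruvate kinase, after which lactate dehydrogenase can turn pyruvate into lactate. Most steps have several isozymes, proliferating and transformed cells are known to use the pathway for biosynthesis as well as for ATP, and activated mast cells draw on it during degranulation and cytokine production.

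The libraries held between 15918757 and 24180226 estimated counts. Values are given as normalised read counts (CPM, scaled by library size), with TMM library sizes that correct for a few abundant genes taking up a library, and 3 counts correspond to between 0.123 and 0.187 CPM. All 10 mast cell markers were detected in every culture, and their summed level was 43521 CPM in PMC-303, 40307 CPM in PMC-306 and between 46824 and 73409 CPM in primary cultures. Kit, Fcer1a and Il1rl1 of this list were lower in the lines (limma, Benjamini-Hochberg adjusted p from 0.000886 to 0.0123), and the other 7 did not pass the threshold. The 7 macrophage markers summed to 441 CPM in PMC-306, of which 426 CPM were Adgre1, to 7.16 CPM in PMC-303 and to between 7.22 and 68.7 CPM in primary cultures, and C1qa, C1qb, Csf1r and Cd14 stayed under 1 CPM in every library. Markers of B cells, T cells, neutrophils and mesothelial cells or fibroblasts summed to less than 1 CPM everywhere, and of 3 red blood cell markers Hba-a1 alone was above 1 CPM, at 22.8 CPM in PMC-306. Mki67, a marker of dividing cells, stood at 1015 CPM in PMC-303, 835 CPM in PMC-306 and between 28.6 and 106 CPM in primary cultures, and its part in the results that follow was not tested. In bulk RNA, fewer cells that express a gene and less of its RNA per cell cannot be told apart.

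Of the 10 genes, 7 were higher in the lines and 0 were lower. The test was limma with a mean-variance trend, run on log2(CPM + 0.1) and comparing the 2 lines with the 6 primary cultures, and a gene was called at a Benjamini-Hochberg adjusted p under 0.05 over 14529 genes tested. The same test called 18.3% of all genes tested higher and 15.5% lower. At an unadjusted p under 0.05, 1 of the 10 genes (Hk1) was on the lower side, and limma-voom, which weights single counts, called the same numbers, 7 higher and 0 lower. The median log2 fold was 0.64 over the 10 genes and -0.01 over all genes tested. In 7 of the 10 genes both lines lay above every primary culture, which held for 23.0% of all genes tested, and in Pkm both lay below every primary culture, which held for 20.1%. In Slc2a3 and Hk1 the groups overlapped.

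**Figure D1:**
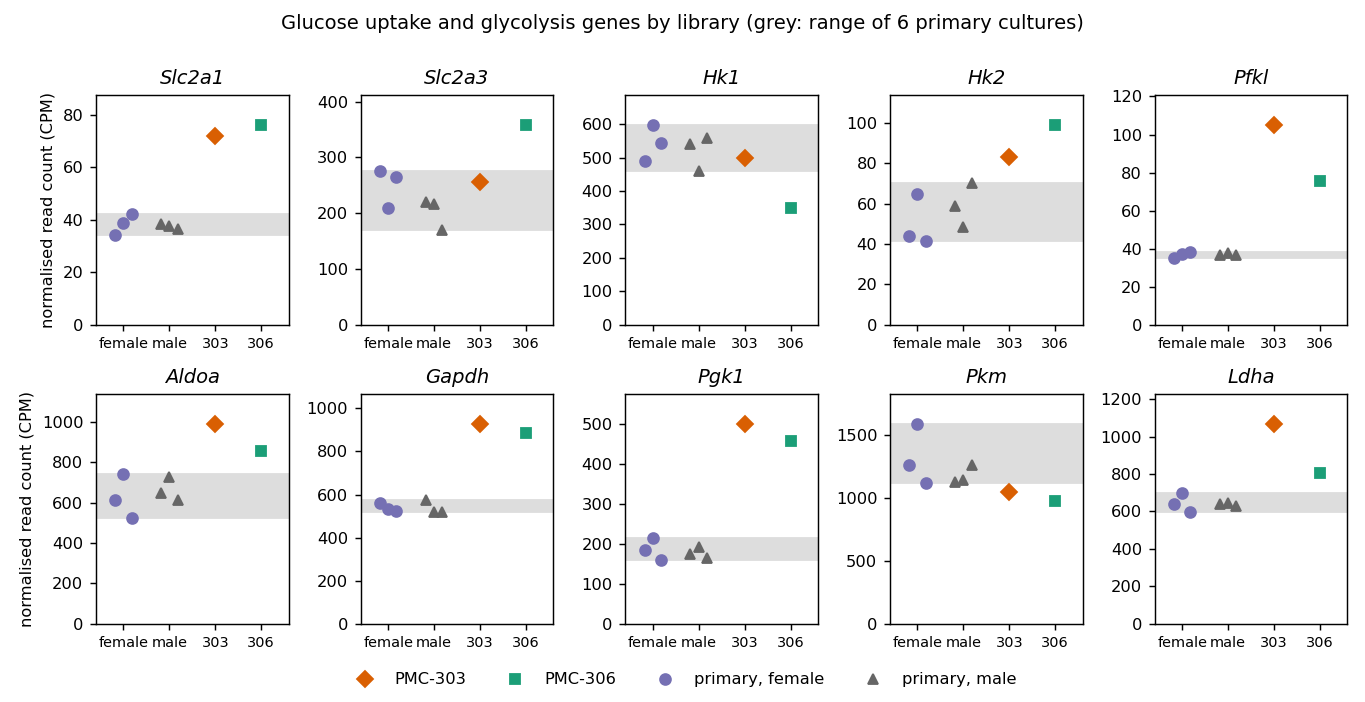
Normalised read counts (CPM, y axis from 0, a scale of its own for each gene) of the 10 genes in 8 libraries. Each point is 1 library, circles and triangles are female and male primary cultures, the diamond is PMC-303, the square is PMC-306, and the grey band spans the 6 primary cultures. Both lines lie above the band for 7 genes and below it for Pkm.

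Before the single genes, the DNA in front of 5 of them is shown, namely Ldha, Hk2, Pgk1 and Pfkl, which rose, and Hk1, which was not called. The sequences are the 300 bases upstream of the start of the transcript of each gene that carried most counts, read from GRCm39 with GENCODE release M39 and written 5′ to 3′ on the strand of the gene. Capitals mark ACGTG or GCGTG on either strand (CACGT and CACGC on the other strand), the core letters of the hypoxia response element to which hypoxia-inducible factors (HIFs) bind. The letters ACGTG are also contained in CACGTG, the E box of MYC and related factors.

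Ldha (Ldha-202, chr7:46494963-46495262, plus strand): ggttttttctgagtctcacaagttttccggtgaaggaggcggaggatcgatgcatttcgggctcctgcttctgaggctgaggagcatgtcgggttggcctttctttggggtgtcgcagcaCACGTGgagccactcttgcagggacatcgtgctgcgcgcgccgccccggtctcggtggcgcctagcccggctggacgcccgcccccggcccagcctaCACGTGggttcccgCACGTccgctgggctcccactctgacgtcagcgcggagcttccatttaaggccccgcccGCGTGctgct

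Hk2 (Hk2-201, chr6:82751453-82751752, minus strand): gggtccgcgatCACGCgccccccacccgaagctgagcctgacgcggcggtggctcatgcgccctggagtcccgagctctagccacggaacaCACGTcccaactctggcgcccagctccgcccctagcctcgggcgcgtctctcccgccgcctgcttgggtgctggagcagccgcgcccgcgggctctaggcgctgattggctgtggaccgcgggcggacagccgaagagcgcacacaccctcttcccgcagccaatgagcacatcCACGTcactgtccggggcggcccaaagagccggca

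Pgk1 (Pgk1-201, chrX:105230406-105230705, plus strand): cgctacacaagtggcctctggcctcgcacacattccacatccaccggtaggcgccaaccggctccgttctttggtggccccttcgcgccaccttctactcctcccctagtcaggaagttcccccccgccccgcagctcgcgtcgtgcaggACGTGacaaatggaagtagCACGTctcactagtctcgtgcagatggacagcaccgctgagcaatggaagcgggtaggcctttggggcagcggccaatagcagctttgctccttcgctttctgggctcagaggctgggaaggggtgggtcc

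Pfkl (Pfkl-201, chr10:77845923-77846222, minus strand): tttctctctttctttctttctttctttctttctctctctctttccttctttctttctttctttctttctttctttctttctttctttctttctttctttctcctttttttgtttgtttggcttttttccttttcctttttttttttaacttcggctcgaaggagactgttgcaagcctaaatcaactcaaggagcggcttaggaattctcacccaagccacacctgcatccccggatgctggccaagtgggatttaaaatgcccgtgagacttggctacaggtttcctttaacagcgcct

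Hk1 (Hk1-205, chr10:62178502-62178801, minus strand): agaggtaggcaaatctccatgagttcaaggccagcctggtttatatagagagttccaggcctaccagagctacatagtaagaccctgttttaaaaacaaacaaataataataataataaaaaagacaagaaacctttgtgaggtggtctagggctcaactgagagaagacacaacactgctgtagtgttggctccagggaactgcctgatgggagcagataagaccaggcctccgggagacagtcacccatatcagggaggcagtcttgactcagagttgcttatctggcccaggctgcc

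The window of Ldha held 6 matches, of which 5 were ACGTG, counted on both strands, and it was the only one of the 10 with CACGTG. Each of its 2 CACGTG reads as ACGTG on both strands and was counted on each, so that the 6 matches lie in fewer separate stretches. The window of Hk2 held 3 matches, that of Pgk1 held 2, and those of Pfkl and Hk1 held 0. The Hk1 window is that of Hk1-205 only, which took 33.7% of the Hk1 counts in primary cultures. Hk1-201 took 32.55%, and the windows of other Hk1 transcripts were not read. Of the other genes, Gapdh had 2 matches, Slc2a1 and Aldoa had 1 each, and Slc2a3 and Pkm had 0. Thus 6 of the 10 windows held ACGTG or GCGTG, beside 57.2% of 11517 promoters of protein-coding genes of the same length. ACGTG alone was in 4 of the 10 windows and in 24.2% of all promoters, GCGTG in 4 and in 45.0%, and CACGTG in 1 and in 8.69%. A match is a description of the letters, and no binding was measured.

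Of the glucose transporters, Slc2a1 rose and Slc2a3 did not pass the test. Slc2a1 encodes GLUT1, the widely expressed transporter for basal glucose uptake, and lies on chromosome 4 from 118965908 to 118996365 (plus strand). Whether the piece of chromosome 4 missing in PMC-306 includes Slc2a1 was not examined. PMC-303 had 71.7 CPM of Slc2a1 and PMC-306 had 76.0 CPM, and in primary cultures the lowest, median and highest values were 34.0, 38.0 and 42.3 CPM. Both lines were well clear of all primary cultures and close to each other. The level was 1.95-fold that of primary cultures (log2 fold 0.96 ± 0.09 SE, limma adjusted p = 0.000157). Slc2a3 encodes GLUT3, a transporter with high affinity for glucose, and lies on chromosome 6 from 122704768 to 122778599 (minus strand). Its level was 256 CPM in PMC-303 against 358 CPM in PMC-306, with 171, 219 and 276 CPM (lowest, median, highest) in primary cultures. PMC-306 stood above every primary culture, while PMC-303 was inside their range. The log2 fold over both lines was 0.44 ± 0.19 (SE, limma adjusted p = 0.115).

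Transcripts of both genes were compared as well. The annotation gives Slc2a1-201 as protein coding and Slc2a1-204 as a target of nonsense-mediated decay. Slc2a1-201 took 51.2% of the Slc2a1 counts in PMC-303, 53.2% in PMC-306 and 50.3 ± 2.24% (SD, n = 6) in primary cultures, so that both lines lay within the primary range of 48.0% to 53.3%. Slc2a3-204, a transcript with a retained intron, took 17.4% of the Slc2a3 counts in PMC-303 (95% Wilson interval 16.4 to 18.3%), 26.4% in PMC-306 (25.4 to 27.4%) and between 13.6% and 18.5% in primary cultures. PMC-306 alone was outside the primary range. The intervals cover counting error only, and reads shared between transcripts were divided by estimation.

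Of the hexokinases, which phosphorylate glucose, Hk2 rose and Hk1 did not pass the test over both lines. Hk2, the isozyme induced by growth factors and insulin, lies on chromosome 6 from 82699740 to 82751469 (minus strand). It had 83.3 CPM in PMC-303, 99.1 CPM in PMC-306 and 41.7, 53.8 and 70.4 CPM in primary cultures (lowest, median, highest). Both lines were above all primary cultures, although the highest primary culture came near PMC-303. The log2 fold was 0.76 ± 0.21 (SE, limma adjusted p = 0.0225), and with 21.4% its coefficient of variation among primary cultures was the highest of the 10 genes. The call of Hk2 did not hold without PMC-303 (adjusted p = 0.0523) or without PMC-306 (adjusted p = 0.14). Hk1, the constitutive isozyme, lies on chromosome 10 from 62104621 to 62215687 (minus strand). Its level was 499 CPM in PMC-303, 348 CPM in PMC-306 and 461, 542 and 597 CPM in primary cultures. PMC-303 was inside the primary range and PMC-306 below it. Over both lines the log2 fold was -0.35 ± 0.15 (SE, limma adjusted p = 0.103), and with PMC-306 as the only line it was -0.61 ± 0.14 (adjusted p = 0.0179), a fit that assumes that the lone line varies like the primary cultures. Of 4 Hk1 transcripts with at least 5% of its counts, Hk1-205 took 32.3% in PMC-303, 30.3% in PMC-306 and 33.7 ± 0.590% (SD, n = 6) in primary cultures.

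Pfkl encodes the liver-type subunit of phosphofructokinase 1, which catalyses the committed step, and lies on chromosome 10 from 77818084 to 77845922 (minus strand). Its level was 105 CPM in PMC-303, 75.3 CPM in PMC-306 and 34.9, 36.8 and 38.1 CPM in primary cultures (lowest, median, highest). The primary cultures were nearly equal, with a coefficient of variation of 3.02%, and the lines stood far above them and apart from each other. The log2 fold was 1.27 ± 0.11 (SE, limma adjusted p = 0.000148). The other subunits did not pass the test. Pfkp, the platelet-type subunit, had a log2 fold of -0.06 (adjusted p = 0.754) and Pfkm, the muscle-type subunit, had 0.16 (adjusted p = 0.686).

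Aldoa encodes aldolase A, which cleaves fructose 1,6-bisphosphate, and lies on chromosome 7 from 126393822 to 126399923 (minus strand). Its level was 989.9 CPM in PMC-303, 855 CPM in PMC-306 and 525, 631 and 742 CPM in primary cultures (lowest, median, highest). Both lines were above all primary cultures, by a smaller margin than for Pfkl. The log2 fold was 0.52 ± 0.14 (SE, limma adjusted p = 0.0198), and without PMC-303 it was 0.41 with an adjusted p of 0.131. Gm57854, the row that overlaps Aldoa and shares its name in the table, had 1.69 CPM in PMC-303, 2.41 CPM in PMC-306 and between 0.176 and 0.622 CPM in primary cultures (log2 fold 2.23 ± 0.44, limma adjusted p = 0.00568). Its counts are few beside those of Aldoa, and reads of the shared sequence could not be assigned with certainty.

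Gapdh and Pgk1 encode the enzymes of the consecutive steps that first make NADH and then ATP. Gapdh, widely used as a reference gene, lies on chromosome 6 from 125135289 to 125143518 (minus strand). It had 927 CPM in PMC-303, 885 CPM in PMC-306 and 517, 527 and 575 CPM in primary cultures (lowest, median, highest). The lines were close together and above a narrow primary range. The log2 fold was 0.75 ± 0.08 (SE, limma adjusted p = 0.000226). Pgk1 lies on chromosome X from 105230706 to 105247305 (plus strand). Its level was 500.1 CPM in PMC-303, 458 CPM in PMC-306 and 159, 179.6 and 215 CPM in primary cultures. The lowest line had more than the highest primary culture by a wide margin. Pgk1 had the largest log2 fold of the 10 genes, 1.40 ± 0.12 (SE, limma adjusted p = 0.000107), which is a 2.65-fold level. Gapdh, Pgk1 and Ldha have processed pseudogenes, and reads that fit a copy equally well could have been divided between them.

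Pkm encodes pyruvate kinase of muscle and of proliferating tissue and lies on chromosome 9 from 59563364 to 59586663 (plus strand). Its level was 1044 CPM in PMC-303, 973.5 CPM in PMC-306 and 1120, 1200 and 1586 CPM in primary cultures (lowest, median, highest). Both lines were just below the lowest primary culture, while female culture 2 stood far above the other 5. The log2 fold was -0.30 ± 0.14 (SE, limma adjusted p = 0.142), so that Pkm did not pass the test. Pkm makes different enzymes from mutually exclusive exons, of which the upstream exon belongs to PKM1, the constitutively active form, and the downstream exon to PKM2, the regulated form of proliferating cells. Each exon has 167 bases, of which 64 differ (61.7% identical). They are shown, from GRCm39 and GENCODE release M39 on the plus strand, because the transcript counts below rest on these bases, and capitals mark the bases at which they differ.

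Pkm upstream exon (in Pkm-202, chr9:59582312-59582478): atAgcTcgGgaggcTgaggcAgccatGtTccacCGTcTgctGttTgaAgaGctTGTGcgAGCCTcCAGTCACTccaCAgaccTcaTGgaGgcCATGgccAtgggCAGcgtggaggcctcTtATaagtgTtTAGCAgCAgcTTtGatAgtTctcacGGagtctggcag

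Pkm downstream exon (in Pkm-201, chr9:59582851-59583017): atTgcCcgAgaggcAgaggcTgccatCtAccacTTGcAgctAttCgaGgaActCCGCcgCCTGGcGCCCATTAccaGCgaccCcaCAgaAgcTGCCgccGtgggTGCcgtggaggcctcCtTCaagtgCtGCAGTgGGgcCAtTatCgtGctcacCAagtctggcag

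Pkm-201, with the downstream exon, was the main transcript in every library. Pkm-202, with the upstream exon, took 13.6% of the Pkm counts in PMC-303 (3452 of 25358 counts, 95% Wilson interval 13.2 to 14%) and 7.17% in PMC-306 (1421 of 19825 counts, 6.82 to 7.54%). Among primary cultures the share of Pkm-202 was 18.4 ± 1.94% (SD, n = 6), from 15.7% to 20.9%. The lines thus lay below every primary culture, and PMC-306 was much lower than PMC-303. The share of Pkm-201 was 82.5% in PMC-303, 89.0% in PMC-306 and 77.7 ± 1.56% (SD, n = 6) in primary cultures. These shares were chosen for description after their values were seen and were not tested.

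Ldha encodes the A subunit of lactate dehydrogenase, which regenerates NAD from NADH by reducing pyruvate, and lies on chromosome 7 from 46490899 to 46505061 (plus strand). Its level was 1067 CPM in PMC-303, 804 CPM in PMC-306 and 597, 640.2 and 697.5 CPM in primary cultures (lowest, median, highest). Both lines were above all primary cultures, PMC-303 by more than PMC-306. The log2 fold was 0.53 ± 0.11 (SE, limma adjusted p = 0.00766), and without PMC-303 it was 0.33 with an adjusted p of 0.0516.

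The calls of Slc2a1, Pfkl, Gapdh and Pgk1 held under all 16 alternative scalings, offsets, filters, tests and choices of cultures. Hk2, Aldoa and Ldha kept their direction in all 16 and their call in 12, 13 and 13 of them, and they lost the call when the lines were compared with the 3 male or the 3 female cultures alone. The scaling moved all genes together to some degree. With plain library totals the median log2 fold of all genes was 0.10, and with the deposited TPM values it was 0.13, in place of -0.01 with TMM. The share of calls on the higher side was then 67.2% and 70.8%, in place of 54.2%, and 7 of the 10 genes were called under each of these scalings.

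**Figure D2:**
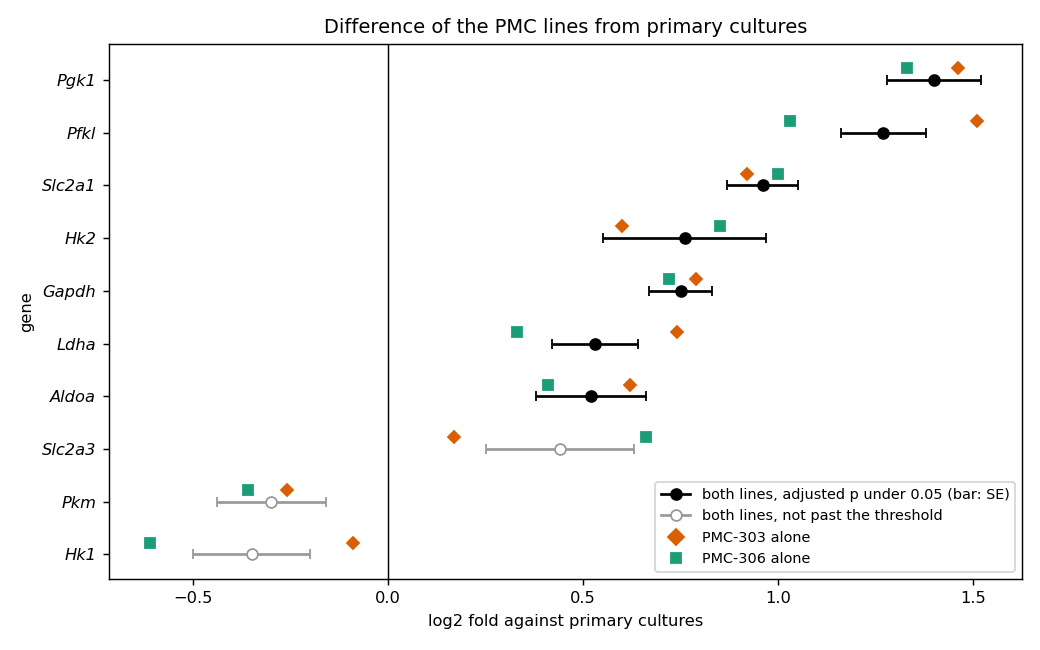
Log2 fold of each of the 10 genes against primary cultures (x axis). Circles with SE bars give both lines together, filled where the limma adjusted p was under 0.05, and the diamond and square give PMC-303 and PMC-306 alone against the mean of the 6 primary cultures. Pgk1 is at the top with 1.40, and Hk1 and Pkm lie on the lower side with -0.35 and -0.30.

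The lines were also set side by side, without a test, as each has 1 library and both are compared with the same primary cultures. In PMC-306, 3 of the 10 genes were at least 2-fold higher than the primary mean, namely Pgk1 (2.52-fold), Pfkl (2.04-fold) and Slc2a1 (2.00-fold), beside 9.65% of all genes tested. In PMC-303 these were Pfkl (2.85-fold) and Pgk1 (2.75-fold), 2 of the 10, beside 9.86% of all genes tested. Slc2a1 with 2.002-fold stood at the limit and Pfkl in PMC-306 close to it, so that the count for PMC-306 depends on where the limit is set. A level at least 2-fold lower was found for none of the 10 in either line. PMC-303 had the higher level in 7 of the 10 genes, and PMC-306 had it in Slc2a1, Slc2a3 and Hk2, the transporters and the inducible hexokinase. The largest gaps between the lines were in Hk1 (0.940-fold in PMC-303 and 0.655-fold in PMC-306), Slc2a3 (1.13-fold and 1.58-fold) and Pfkl (2.85-fold and 2.04-fold).

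Levels of different genes were compared per length, as TPM, which counts transcripts relative to all transcripts of a library. In primary cultures Pkm was the most abundant of the 10 with 600 ± 101 TPM (SD, n = 6), followed by Aldoa (485 ± 81.6 TPM), Ldha (457.5 ± 51.3 TPM) and Gapdh (454.5 ± 54.5 TPM), and the ranges of neighbours in this order overlapped. Hk1 with 206 ± 26.8 TPM, Pgk1 with 109 ± 18.0 TPM and Slc2a3 with 61.2 ± 13.4 TPM followed, each with a range clear of its neighbours. The lowest were Slc2a1 (15.3 ± 2.22 TPM), Pfkl (12.9 ± 1.61 TPM) and Hk2 (10.9 ± 2.01 TPM), whose ranges overlapped. In the lines the order at the top was another one, since Gapdh led with 858 TPM in PMC-303 and 839.5 TPM in PMC-306, and Pkm stood at 548 and 514.5 TPM, behind Gapdh, Ldha and Aldoa. The 10 genes together took 3732 TPM in PMC-303 and 3362 TPM in PMC-306, against 2413 ± 294 TPM (SD, n = 6) in primary cultures, which is 0.373%, 0.336% and 0.241% of all transcripts. Male culture 3 had the lowest sum, 1897 TPM, and the lowest TPM of 9 of the 10 genes, while its CPM was the lowest in 1 of them.

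**Figure D3:**
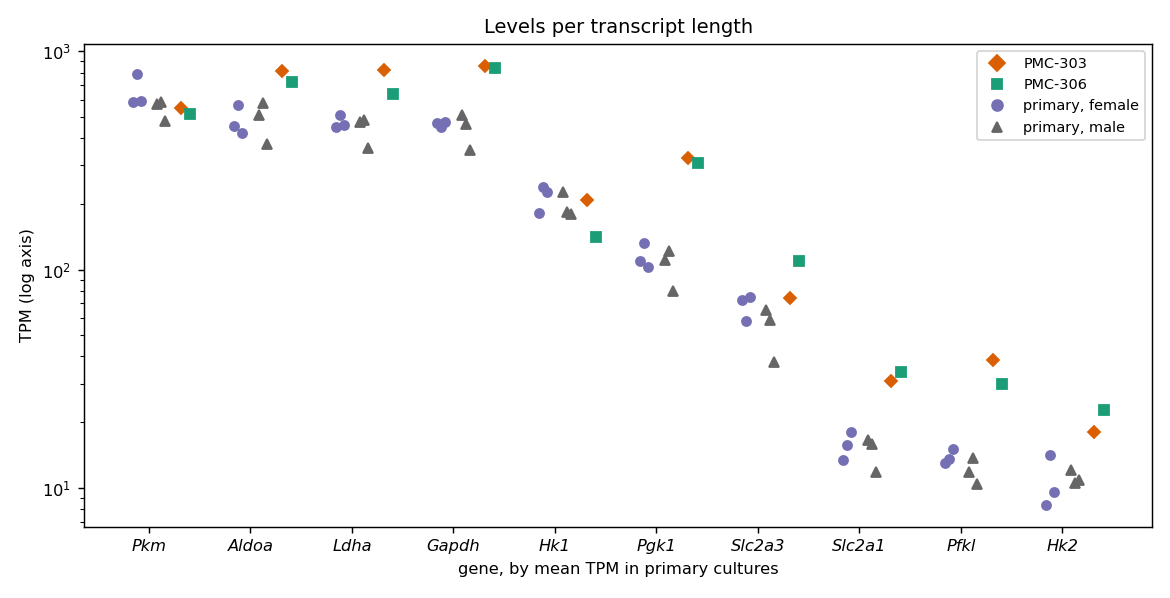
Level of each of the 10 genes per transcript length (TPM, log axis), ordered by the mean of the 6 primary cultures. Each point is 1 library with the symbols of the plot by library. Pkm, Aldoa, Ldha and Gapdh lie together at the top, and Slc2a1, Pfkl and Hk2 together at the bottom.

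Shares of isozymes were compared within each library as shares of TPM, which do not depend on scaling between libraries. Pfkl made up 18.0% of the 3 phosphofructokinase transcripts in PMC-303, 18.1% in PMC-306 and 8.62 ± 0.816% (SD, n = 6) in primary cultures, of which the highest had 9.71%. Hk2 made up 7.90% of the 3 hexokinase transcripts in PMC-303, 13.8% in PMC-306 and 5.03 ± 0.675% in primary cultures. Both shares separated the lines from all primary cultures, which gives the smallest p an exact two-sided permutation test can reach with 28 assignments of the libraries (p = 0.0357 each, adjusted p = 0.107 over 6 shares). The share of Slc2a1 in Slc2a1 and Slc2a3 was 29.4% in PMC-303, 23.7% in PMC-306 and 20.3 ± 2.76% in primary cultures, of which the highest had 23.9% (exact permutation p = 0.0714, adjusted p = 0.107). Aldoa made up 98.6% of the aldolase transcripts in PMC-303, 97.1% in PMC-306 and 99.4 ± 0.521% in primary cultures (exact permutation p = 0.0714, adjusted p = 0.107), and Aldoc held the rest. Eno1 was the main enolase in every library, with 97.5%, 96.2% and 95.1 ± 1.57% (exact permutation p = 0.179, adjusted p = 0.214), and Ldha was practically the only lactate dehydrogenase subunit, with at least 99.98% in every library (exact permutation p = 1). None of the 6 shares passed the threshold after adjustment. With a smallest p of 0.0357, Pfkl and Hk2 could not have passed unless most of the 6 shares had reached it as well. No conclusion is therefore drawn from the adjusted values.

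**Figure D4:**
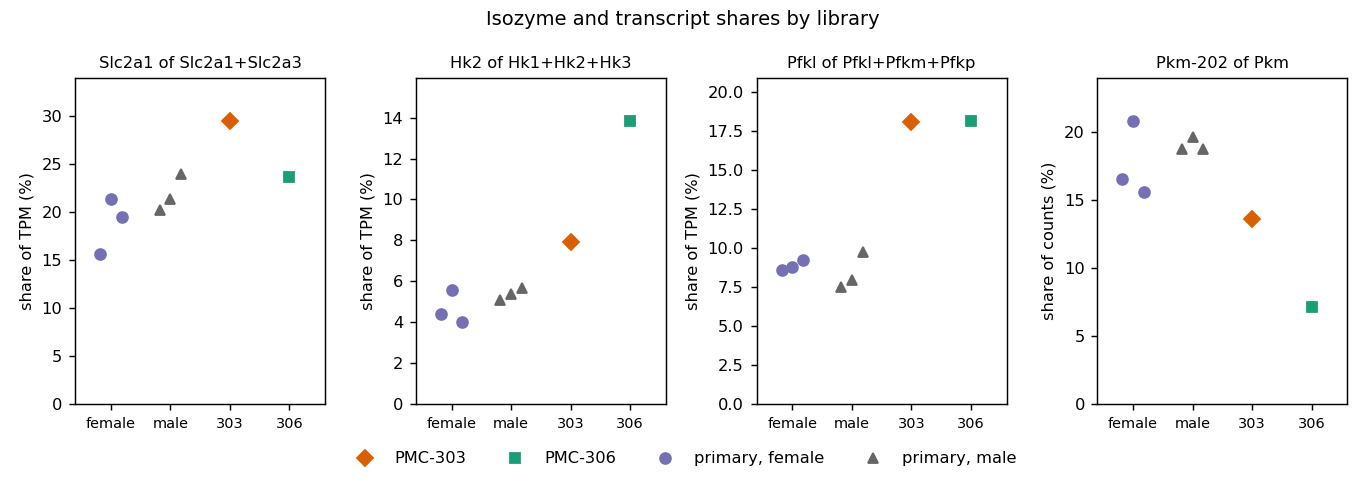
Shares of Slc2a1, Hk2 and Pfkl in the TPM of their families and of Pkm-202 in the Pkm counts (percent, y axes from 0) in 8 libraries, with female and male primary cultures, PMC-303 and PMC-306 on the x axis. Each point is 1 library. The lines are above all primary cultures for Hk2 and Pfkl and below all of them for Pkm-202.

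Sex of the animal was the only labelled difference among primary cultures. None of the 10 genes was called between 3 female and 3 male cultures by limma or by limma-voom, 0 of them had an unadjusted p under 0.05, and 0.0438% of 13710 genes tested were called. The log2 folds of the 10 genes, female minus male, ran from -0.25 (Hk2) to 0.30 (Slc2a3), and the lowest unadjusted p was 0.0757, for Slc2a3. Slc2a3 had 251 ± 35.9 CPM (SD, n = 3) in female and 203 ± 27.8 CPM (SD, n = 3) in male cultures, and these ranges overlapped. Among all 6 primary cultures the coefficient of variation of the 10 genes had a median of 10.3%, with Pfkl, Gapdh (4.59%), Ldha (5.09%) and Slc2a1 (7.22%) varying least and Hk2 and Slc2a3 (17.2%) varying most.

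The rest of the pathway was read from lists of 128 genes, of which 97 had enough counts to be tested, 30 were higher in the lines and 13 were lower. These were 30.9% and 13.4% of the listed genes tested, beside 18.3% and 15.5% of all genes tested, so that the share of lower genes was near the background and nothing is read from it. Of 23 other glycolytic enzymes and isozymes, 14 were tested, 5 were higher and 2 lower, with a median log2 fold of 0.05. Tpi1, triosephosphate isomerase, had 376 CPM in PMC-303, 313 CPM in PMC-306 and between 109.6 and 129 CPM in primary cultures (2.83-fold, limma adjusted p = 5.4e-05). Eno1, the enolase that follows phosphoglycerate mutase, had 529, 414 and between 98.1 and 184.5 CPM (log2 fold 1.63 ± 0.24, adjusted p = 0.00144), and its reads may be shared with near-identical copies. Aldoc had a log2 fold of 2.60 ± 0.65 (adjusted p = 0.0155) from a low level, Eno3 one of 1.11 ± 0.15 (adjusted p = 0.001) and Gpi1, phosphoglucose isomerase, one of 0.38 (adjusted p = 0.00825). Pgam1, phosphoglycerate mutase, had 406 CPM in PMC-303 but 190.2 CPM in PMC-306, inside the primary range of 183 to 240.1 CPM (log2 fold 0.36, adjusted p = 0.277). The lower genes were Ldhc and Ldhd, both under 3 CPM in every library. Along the main route from Slc2a1 to Ldha, the enzyme genes with a called rise were therefore Hk2, Gpi1, Pfkl, Aldoa, Tpi1, Gapdh, Pgk1, Eno1 and Ldha. Pgam1 and Pkm were not called. For hexokinase and phosphofructokinase the rise was in a minor isozyme. Hk2 held 5.03% and Pfkl 8.62% of the TPM of their families in primary cultures. Hk1, Pfkp and Pfkm (log2 fold -0.35, -0.06 and 0.16) were not called.

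The 12 other glucose transporters had 5 tested genes, of which 0 were higher (0 at an unadjusted p under 0.05 and 0 by limma-voom) and 3 were lower, with a median log2 fold of -0.59. The lower genes were 60% of those tested, beside 15.5% of all genes. The 0 higher genes stand beside 18.3% of all genes, and nothing is read from them. Slc2a6, a transporter of lysosomal membranes, had 129.7 CPM in PMC-303, 148 CPM in PMC-306 and between 199 and 219 CPM in primary cultures (log2 fold -0.59 ± 0.07, limma adjusted p = 0.000587). Slc2a9, which carries urate, was at 0.354-fold its primary level (adjusted p = 0.0234), and Slc2a10 had a log2 fold of -3.80 from at most 7.73 CPM (adjusted p = 0.000266). The 5 enzymes that set fructose 2,6-bisphosphate, the activator of phosphofructokinase 1, had 0 higher (1 at an unadjusted p under 0.05, 0 by limma-voom) and 3 lower. Again 60% of the tested genes were lower, beside 15.5% of all genes, and the 0 is not read as a result. Pfkfb2 had 23.8, 20.2 and between 41.5 and 47.7 CPM (log2 fold -1.03 ± 0.09, adjusted p = 0.000155), Pfkfb3 had a log2 fold of -0.67 ± 0.16 (adjusted p = 0.014), and Tigar, which removes fructose 2,6-bisphosphate, had -0.77 ± 0.14 (adjusted p = 0.00379). Pfkfb1 and Pfkfb4 did not pass the test. Genes that make and genes that remove the activator were thus both among the lower ones.

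Lactate and pyruvate leave cells through monocarboxylate transporters. Of the 5 tested genes of this list, 3 were higher and 0 lower (0 at an unadjusted p under 0.05 and 0 by limma-voom). These were 60% and 0%, beside 18.3% and 15.5% of all genes tested, and nothing is read from the 0. Slc16a1, which encodes MCT1, had 41.0 CPM in PMC-303, 37.1 CPM in PMC-306 and between 2.99 and 4.75 CPM in primary cultures, a 9.87-fold level (log2 fold 3.30 ± 0.19, limma adjusted p = 5.4e-05). Slc16a3, which encodes the lactate exporter MCT4, had 98.0, 50.1 and between 26.5 and 33.1 CPM (log2 fold 1.18 ± 0.21, adjusted p = 0.00363). Emb, embigin, a chaperone of monocarboxylate transporters, had 141, 268 and between 75.2 and 117 CPM (log2 fold 1.06 ± 0.24, adjusted p = 0.0106), while Bsg, basigin, the usual chaperone of MCT1 and MCT4, had a log2 fold of 0.38 (adjusted p = 0.0888). At the entry of pyruvate into mitochondria 13 genes were tested, 6 were higher and 1 was lower. These were 46.2% and 7.69% of the list, beside the same shares of all genes tested. Pdk1, a kinase that switches pyruvate dehydrogenase off, rose (log2 fold 1.54 ± 0.31, adjusted p = 0.0057), as did the phosphatases Pdp1 (0.60 ± 0.14, adjusted p = 0.0106) and Pdp2 (0.50 ± 0.14, adjusted p = 0.0265) that switch it on and the subunits Pdhb, Dlat and Dld (0.35, 0.34 and 0.23). Pdk2 fell, with a log2 fold of -0.84 (adjusted p = 0.0159).

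In the serine and pentose phosphate branches, which leave glycolysis, 80% and 40% of the tested genes were higher, beside 18.3% of all genes tested. None were lower, beside 15.5% of all genes tested, and in lists of this size nothing is read from that. In the serine branch, which starts from 3-phosphoglycerate, 4 of 5 genes were higher and 0 lower (0 at an unadjusted p under 0.05 and 0 by limma-voom), with a median log2 fold of 1.34. Phgdh, its first enzyme, had 8.41 CPM in PMC-303, 43.0 CPM in PMC-306 and between 0.373 and 0.839 CPM in primary cultures (log2 fold 4.77 ± 0.57, limma adjusted p = 0.000479). Psat1 (1.34 ± 0.16), Shmt1 (1.43 ± 0.22) and Shmt2 (1.32 ± 0.10), which follow it towards serine and glycine, had adjusted p from 7.9e-05 to 0.00186, and all 5 genes of the list were above every primary culture in both lines. In the pentose phosphate pathway, which supplies NADPH and ribose, 4 of 10 tested genes were higher and 0 lower (0 at an unadjusted p under 0.05 and 0 by limma-voom). They were Rpia (log2 fold 0.73 ± 0.12), Tkt (0.64 ± 0.12), G6pdx (0.52 ± 0.12) and Pgls (0.29 ± 0.10), with adjusted p from 0.00218 to 0.0486. In gluconeogenesis and glycogen, 3 of 11 tested genes were higher (27.3%, likewise not read as a result beside the 18.3% of all genes), led by Pck2, mitochondrial phosphoenolpyruvate carboxykinase (log2 fold 0.74 ± 0.09, adjusted p = 0.00048), with Ugp2 (0.44) and Pygb (0.40) the others that rose, and G6pc3 (-0.61) fell.

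HIF1 is a known activator of glycolysis genes. Of HIF genes and their oxygen sensors 6 were tested and 0 were called in either direction by limma or limma-voom, 0 of them at an unadjusted p under 0.05. Of all genes tested, 18.3% were called higher and 15.5% lower, and with 6 genes nothing is read from the 0. Hif1a had 235 CPM in PMC-303, 173 CPM in PMC-306 and between 139.5 and 187 CPM in primary cultures (log2 fold 0.31, limma adjusted p = 0.158), and PMC-306 was inside the primary range. Of 15 tested HIF target genes outside glycolysis, 4 were higher and 1 lower, and a share of 26.7% higher in a list of this size is not read as a result beside the 18.3% of all genes. Mxi1, an antagonist of MYC (log2 fold 2.03 ± 0.28, adjusted p = 0.000993), Car9, a carbonic anhydrase of the cell surface (1.56 ± 0.33, adjusted p = 0.0076), Vegfa, a growth factor of vessels (1.10 ± 0.20, adjusted p = 0.00363), and Ankrd37 (2.37 ± 0.58, adjusted p = 0.0143) rose. Ndrg1 fell, with 17.2 CPM in PMC-303, 70.0 CPM in PMC-306 and between 82.3 and 127 CPM in primary cultures (log2 fold -1.53 ± 0.44, adjusted p = 0.0283). The median log2 fold was 0.13 for these targets and 0.12 for HIF and its sensors. Of 8 tested other regulators, Txnip, an inhibitor of glucose uptake that glucose itself induces, fell (log2 fold -0.91 ± 0.22, adjusted p = 0.0129), with 237 CPM in PMC-303, 284 CPM in PMC-306 and between 388.5 and 672 CPM in primary cultures, and Sp1, a widely expressed transcription factor, rose (0.37 ± 0.08, adjusted p = 0.00684).

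**Figure D5:**
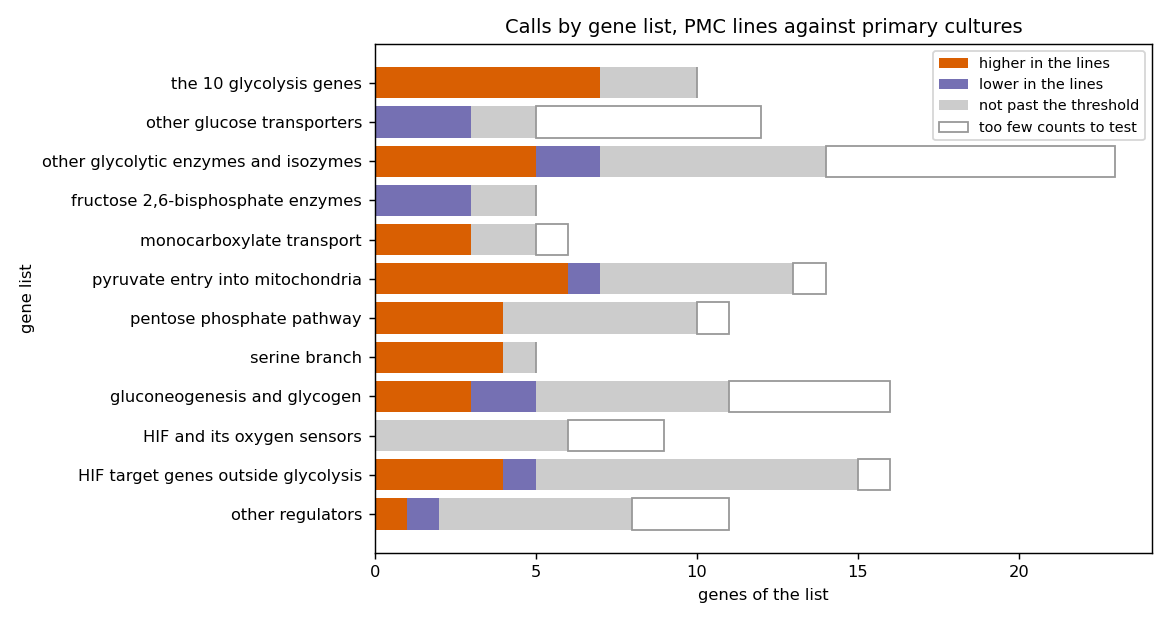
Number of genes (x axis) of each list that were higher or lower in the lines at a limma adjusted p under 0.05, that did not pass it, or that had too few counts to be tested. The 10 glycolysis genes are the top bar with 7 higher and 0 lower, and HIF and its oxygen sensors have 0 called.

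The genes with the pattern most like that of Pgk1, which had the largest log2 fold of the 10, were Ran, Hprt, Mrpl40, H2az2 and Bud31, by Pearson's r of log2(CPM + 0.1) over 8 libraries among 8749 genes that averaged 10 CPM or more. Their r with Pgk1 lay between 0.990 and 0.994, with the lines apart from the primary cultures in each of these genes. A clear step between lines and primary cultures is enough for a high r. Both lines lay above every primary culture in 23.0% of all genes tested. Ran, a small GTPase of nuclear transport, had 346 CPM in PMC-303, 331 CPM in PMC-306 and a mean of 186 ± 13.9 CPM (SD, n = 6) over primary cultures. Within the 6 primary cultures alone, Pgk1 had r = 0.94 with Ldha, 0.88 with Aldoa and 0.70 with Pkm, and between -0.23 and 0.22 with the other 6 genes, given as a description over cultures that differ in depth. Female culture 2 had the highest level of Pgk1, Ldha, Aldoa and Pkm. Its Pkm of 1586 CPM was far above the next highest, 1265 CPM, and r without this culture was not computed.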

How the data were processed

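RNA sequencing of 8 cultures was used, 2 PMC lines with 1 library each and 6 primary cultures, grouped by their labels, and 0 value columns had no sample. According to the paper and the processing notes, the authors made stranded total RNA libraries, trimmed reads with Trim Galore 0.6.7, mapped them with STAR 2.7.9a on GRCm39 and used Salmon 1.5.2 for quantification. What the authors deposited are estimated counts of genes and of transcripts (raw, without normalization) and gene TPM, scaled for length and library size. The other deposited table, transcript TPM, was not used here.

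A spreadsheet program had rewritten 3.37% of the gene count cells, 3.22% of those with transcript counts and 20.8% of those with gene TPM as dates or with additional points, and these were restored. Afterwards 99.7% of genes matched the sum of their transcripts within 0.2 counts, and the largest difference was 1.53 counts. The point in 4823 TPM cells was placed with the help of the counts, and TPM is not independent there.

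CPM were computed with TMM library sizes in R 4.3.3. Because the deposited cells hold text, no count model was used, and limma 3.58.1 with a mean-variance trend was fitted to log2(CPM + 0.1) over all genes with about 10 counts in enough libraries and 15 in total, two-sided, with Benjamini-Hochberg adjustment. On simulated libraries with 200 genes changed 4-fold, it found all 200 for the lines (5 false calls, 14338 genes) and all 200 for the sexes (8 false calls, 13729 genes). Smaller changes were not simulated, so that this says nothing of the power at the folds of the 10 genes. A fold of a single line is the ratio of CPM + 0.1 to the primary mean + 0.1. Shares were tested with exact permutations in Python 3.11.15. The genes and lists were chosen with earlier results of these data known, so that they are descriptions. From each list, up to 4 called genes with the largest log2 fold and a mean of at least 5 CPM were named, with isozymes, and genes of the most similar pattern with a mean of at least 10 CPM. Slc2a10, Ldhc, Ldhd, Gpi1, Pgam1, Pdk2, Dlat, Dld, Ankrd37, Bsg, Hif1a, Pfkfb1 and Pfkfb4 were named outside this rule after their values were seen, and 1 gene is not reported here. The labels call the primary cultures of each sex biological replicates. Nothing says how many animals gave each culture or whether cultures of the same sex shared animals, so p-values measure the spread between these samples. Same-numbered female and male cultures did not deviate together (r = 0.36, -0.20 and 0.28), and no primary libraries were duplicates (chi-square between 19.1 and 62.5 per degree of freedom). Alternatives were other scalings, offsets, filters, limma-voom, deposited TPM, single sexes and leaving out each library.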

Additional observations from a re-analysis of the deposited data

Results flagged for a closer look

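Among 33 measures over the 6 primary cultures (the level of each gene, the isozyme shares and the transcript shares), 2 had a culture far from the other 5, where chance flags about 1 in 20. The level of Pkm was 1586 CPM in female culture 2 and 1265 CPM in the next highest culture. The share of Ldha in the lactate dehydrogenase transcripts was 99.98% in female culture 1 and 100% in the others, a difference that rests on single reads of Ldhb.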

How the results depend on the processing

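The number of the 10 genes called in the lines was 7 and stayed 7 with other scalings, offset, filter, limma-voom and deposited TPM. It was 4 with male primary cultures only and 4 with female primary cultures only, fits with fewer samples, and from 5 to 7 when 1 library was left out, where a line left alone is assumed to vary like the primary cultures. Without PMC-303 the 5 were 4 of the 7 rises (Slc2a1, Pfkl, Gapdh and Pgk1) and Hk1, which was then called lower, and without PMC-306 they were 6 of the 7 rises. Over all genes the calls were 4920, and 3033 with male and 2160 with female cultures only (3848 to 4664 with 1 library left out). Over the pathway lists they were 43, and 28 and 20 (33 to 44 with 1 library left out). With the replicate block of same-numbered cultures, which the data do not show to be paired, the comparison of sexes called 5 genes in place of 6, and 0 of the 10. No log2 fold of the 10 genes changed direction under the 16 alternatives of the lines. Of the folds of a single line under alternatives, 8 were rated as moved for PMC-306 and 6 for PMC-303, and 92 and 94 as the same. With 1 library per line, the number of lines limits the precision.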

Other observations

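Genes that laboratories use as references can be read beside Gapdh, and Hprt, Actb and Hsp90ab1 were looked up after the values of Gapdh and Hprt had been seen. The study's RT-qPCR was normalised to Hprt. Its blots used GAPDH as a loading control for stimulated PMC-306, and HSP90 and actin where primary PMCs and PMC-306 were compared. Blots show protein, whereas the values here are RNA, and protein levels were not read. Hprt, an enzyme of purine salvage, had 99.5 CPM in PMC-303, 95.02 CPM in PMC-306 and 54.3, 57.1 and 64.7 CPM in primary cultures (lowest, median, highest). Its log2 fold was 0.75 ± 0.08 (SE, limma adjusted p = 0.000275), with a range from 0.71 to 0.89 over 16 alternatives, all of them called. Actb had 8311 CPM in PMC-303, 8450 CPM in PMC-306 and between 4719 and 5647 CPM in primary cultures (log2 fold 0.69 ± 0.15, adjusted p = 0.00797, called in 14 of 16 alternatives). Hsp90ab1 had 1109 CPM in PMC-303, 1034 CPM in PMC-306 and between 926 and 1186 CPM in primary cultures (log2 fold 0.06 ± 0.10, adjusted p = 0.694), inside the primary range in both lines. Gapdh, Hprt and Actb were thus higher in the lines relative to all RNA in these libraries, with Gapdh called in all 16 alternatives and Hsp90ab1 in 0.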
